A study of Arabidopsis thaliana with 12 samples.

Results

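WLIM1 (AT1G10200), WLIM2a (AT2G39900) and WLIM2b (AT3G55770), which encode LIM-domain proteins, were described together with the actin gene ACT11 (AT3G12110), the beta-tubulin gene TUB5 (AT1G20010) and SPR1 (AT2G03680), also called SPIRAL1. The members were all probe sets that the platform annotation pairs with 1 of these genes alone. There were 6, 1 for each gene, among 8297 probe sets on the array and 3602 genes with a probe set to themselves. The genes were chosen by the course of their signal over the days, the joint fall of the LIM genes, the rise of ACT11 and the course of TUB5, with SPR1 beside them as a microtubule gene. Array signal is given as deposited, on a scale read from the values as log2, so a difference of 1 is taken as a doubling of signal. Levels of different probe sets are not set against each other, because probes differ in how strongly they bind.

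The samples were shoot apices of Arabidopsis thaliana in the Columbia background. Seedlings had 30 days at 21 °C with 9 h of light and 15 h of dark, then passed to 16 h of light and 8 h of dark, and RNA was taken at 0, 2 and 4 days of the new regime. Of the 4 genotypes, friCol-FLC is Col-0 wild type, with Col-0 alleles at both FRIGIDA (FRI), a flowering regulator, and FLOWERING LOCUS C (FLC), a floral repressor, and friCol-flc3 has the Col-0 FRI allele and the deletion allele flc-3. FRISf2-FLC carries an active FRI allele brought in by introgression from San Feliu-2 (Sf-2) together with Col-0 FLC, and FRISf2-flc3 carries the Sf-2 FRI allele and flc-3. An introgression brings neighbouring DNA with the gene, so the Sf-2 lines may differ from Col-0 at more than FRI. The series holds 12 arrays, 1 per genotype and day, hence no replicates within a genotype and day. The labels do not say how many plants went into a sample or at what hour it was taken, and no plants were kept in short days after day 0, so that day length, plant age and harvest occasion cannot be told apart. In whole apices, fewer cells of a type and less RNA per cell cannot be told apart either.

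Actin filaments and microtubules are the polymers that guide growth and division of plant cells. LIM proteins of the plant family have a pair of LIM domains, bind actin filaments and gather them into bundles. The WLIM genes are active in many tissues, whereas the PLIM genes belong mainly to pollen. ACT11 is grouped with the reproductive actins, which are known for activity in pollen, ovules and other floral tissue. TUB5 encodes a subunit of the tubulin dimer from which microtubules are built. SPR1 is a small plant protein that sits on microtubules and their growing ends, and its loss makes organs twist.

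The array medians lay within 0.06 of each other, and every member passed the filter on low signal. Members lay between the 54.8th and the 95.9th percentile of mean signal over all probe sets other than controls. The FRISf2-flc3 day 2 array had a residual SD of 0.165 over the tested probe sets after genotype and day were fitted, against 0.0969 to 0.132 on the other 11 arrays. Its control probe sets BioB-3_at, BioB-5_at and BioB-M_at measured 9.65, 9.26 and 9.69. On the other 11 arrays they measured 7.13 to 7.78, 7.01 to 7.62 and 7.26 to 7.95. Among markers of other tissues, the leaf genes LHCB4.1, RCA, SBPASE and PRK had mean signals of 11.64, 10.80, 6.95 and 7.87, while no shoot meristem, root or vascular gene of the marker lists was paired singly with a probe set. The tissue label was therefore not checked on meristem markers.

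WLIM2a was high on day 0 and lower on both later days. On day 0 it measured 7.48 in friCol-FLC, 7.73 in friCol-flc3, 7.72 in FRISf2-FLC and 7.74 in FRISf2-flc3. On day 2 the values, in the same order, were 7.12, 7.24, 7.19 and 7.02, and on day 4 they were 7.30, 7.16, 7.26 and 7.10. Every array of day 0 lay above every array of days 2 and 4. The mean over the 4 genotypes was 7.67 ± 0.124 on day 0, 7.14 ± 0.0959 on day 2 and 7.21 ± 0.0935 on day 4 (SD, n = 4 genotypes). The additive fit of genotype and day gave a difference of -0.53 ± 0.0882 (standard error, SE) for day 2 against day 0, a 1.44-fold lower signal. For day 4 against day 0 the difference was -0.46 ± 0.0882, or 1.38-fold lower.

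WLIM2b had the tightest day 0 and day 4 values of the 3 LIM genes. On day 0 it measured 10.11, 10.14, 10.09 and 10.10 in friCol-FLC, friCol-flc3, FRISf2-FLC and FRISf2-flc3. On day 2 it measured 9.79, 9.61, 9.87 and 9.62, and on day 4 it measured 9.83, 9.84, 9.87 and 9.86. Day 0 did not overlap with either later day. The spread over genotypes was 0.0211 on day 0, 0.128 on day 2 and 0.0176 on day 4 (SD, n = 4), and on day 2 both flc3 genotypes lay below both FLC genotypes. From day 2 to day 4 the gene gained 0.22 and 0.24 in friCol-flc3 and FRISf2-flc3, against 0.04 and -0.01 in friCol-FLC and FRISf2-FLC. A fit with day terms that differ with the FLC allele was added after the data were seen. In it the change with FLC minus that without was 0.23 ± 0.136 by day 2 (limma adjusted p = 0.982). From day 2 to day 4 it was -0.21 ± 0.136 (limma adjusted p = 0.822). Neither passed, and the share of probe sets split in this way was not counted. The fitted differences from day 0 were -0.39 ± 0.0712 on day 2 (1.31-fold lower) and -0.26 ± 0.0712 on day 4 (1.20-fold lower).

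WLIM1 was lower on both later days than on day 0 in every genotype, with the largest day 4 change in FRISf2-flc3. On day 0 it measured 7.20 in friCol-FLC, friCol-flc3 and FRISf2-FLC alike, and 7.55 in FRISf2-flc3. On day 2 it measured 6.97, 6.87, 6.79 and 7.18, and on day 4 it measured 6.92, 6.91, 6.97 and 6.74. FRISf2-flc3 was thus the highest array on days 0 and 2 and the lowest on day 4, a change of -0.81 over 4 days against -0.28, -0.29 and -0.23 in friCol-FLC, friCol-flc3 and FRISf2-FLC. From day 2 to day 4 it changed by -0.05, 0.04, 0.18 and -0.43. Days 2 and 4 each lay wholly below day 0. The fitted differences from day 0 were -0.34 ± 0.104 on day 2 and -0.41 ± 0.104 on day 4. Without the FRISf2-flc3 day 4 array the day 4 value was -0.28, and without its day 0 array it was -0.33.

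**Figure D1:**
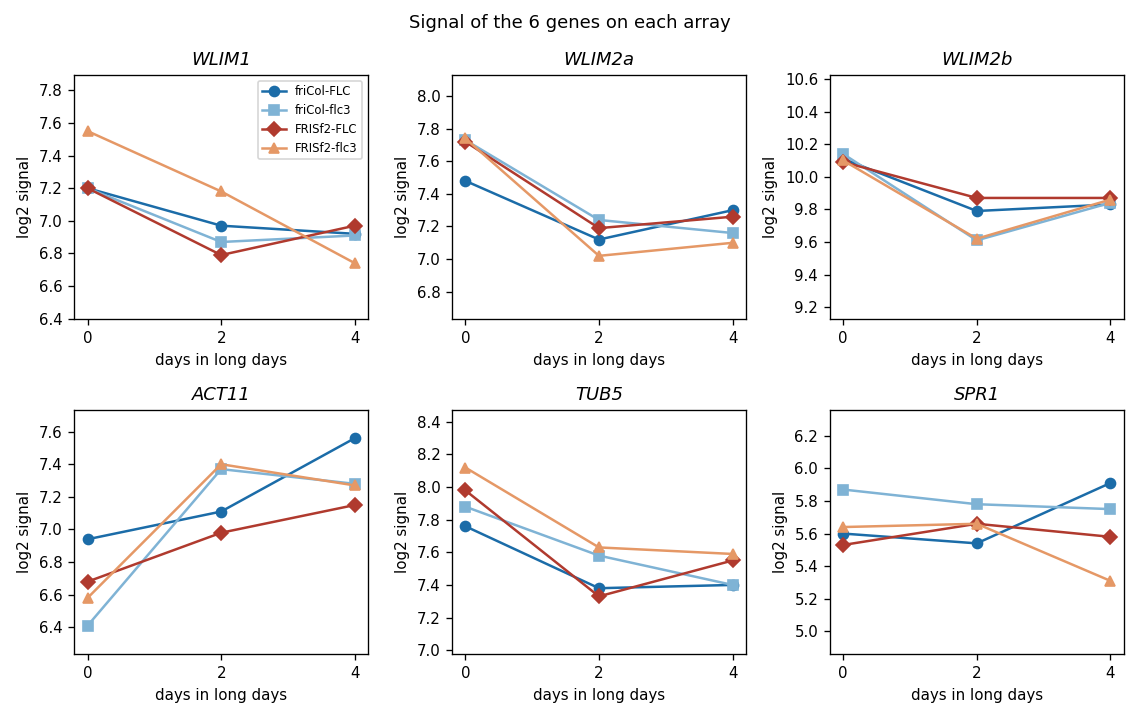
Log2 signal of the 6 genes (vertical axis, a window of the same height in every panel) against days in long days (horizontal axis), with 1 point per array and 1 line per genotype. The 3 LIM genes and TUB5 have all day 0 points above their later points, ACT11 has them below, and SPR1 shows no shared course.

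ACT11 moved the other way. On day 0 it measured 6.94, 6.41, 6.68 and 6.58 in friCol-FLC, friCol-flc3, FRISf2-FLC and FRISf2-flc3. On day 2 it measured 7.11, 7.37, 6.98 and 7.40, and on day 4 it measured 7.56, 7.28, 7.15 and 7.27. All later arrays lay above all day 0 arrays, although the margin between the highest day 0 array and the lowest day 2 array was narrow (6.94 against 6.98). The fitted differences from day 0 were 0.56 ± 0.122 on day 2 (1.48-fold higher) and 0.66 ± 0.122 on day 4 (1.58-fold higher). The values of the separate intervals grouped by the FLC allele. By day 2 the signal had changed by 0.96 and 0.82 in friCol-flc3 and FRISf2-flc3, but by 0.17 and 0.31 in friCol-FLC and FRISf2-FLC. From day 2 to day 4 the genotypes with FLC gained 0.45 and 0.16, whereas those without it changed by -0.09 and -0.13. A fit in which the day terms differ with the FLC allele, added after these values were seen, put the day 2 change 0.65 ± 0.171 lower with FLC. This did not pass over all tested probe sets (limma adjusted p = 0.982, unadjusted p = 0.00337). It was the only member with an unadjusted p under 0.05, where 3.83% of all probe sets had one and 0.0162% passed after adjustment.

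TUB5 was lower on both later days, as were the LIM genes. On day 0 it measured 7.76, 7.88, 7.98 and 8.12 in friCol-FLC, friCol-flc3, FRISf2-FLC and FRISf2-flc3. On day 2 it measured 7.38, 7.58, 7.33 and 7.63, and on day 4 it measured 7.40, 7.40, 7.55 and 7.59. Each day 0 array lay above each later one, and FRISf2-flc3 was the highest array on all 3 days. The fitted differences from day 0 were -0.45 ± 0.083 on day 2 (1.37-fold lower) and -0.45 ± 0.083 on day 4 (1.36-fold lower). From day 2 to day 4 the fitted change was 0.01 ± 0.083, so in the mean over genotypes the difference was there by day 2. Single genotypes changed in that interval by 0.02, -0.18, 0.23 and -0.04, in the order above. Actin and tubulin genes have close relatives, and how far the ACT11 and TUB5 probes also bind those was not tested.

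SPR1 had no common course over the days. On day 0 it measured 5.60, 5.87, 5.53 and 5.64 in friCol-FLC, friCol-flc3, FRISf2-FLC and FRISf2-flc3. On day 2 it measured 5.54, 5.78, 5.66 and 5.66, and on day 4 it measured 5.91, 5.75, 5.58 and 5.31. The days overlapped throughout. The spread over genotypes was 0.145 on day 0, 0.0982 on day 2 and 0.258 on day 4 (SD, n = 4), with friCol-FLC highest and FRISf2-flc3 lowest at the end. The fitted differences from day 0 were 0.00 ± 0.109 on day 2 and -0.02 ± 0.109 on day 4.

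The day values above served to choose the members, so they are a description and were given no test of their own. For the same reason nothing is read from the number of members that passed in the limma fit over all probe sets (adjusted p under 0.05). Between day 0 and day 2 it was 4 of 6, namely WLIM2a, WLIM2b and TUB5 lower and ACT11 higher, where 10.7% of the 6185 tested probe sets passed (4.8% higher, 5.89% lower). Between day 0 and day 4 it was 5 of 6, with WLIM1 added, where 18.3% passed (8.78% higher, 9.49% lower). Between day 2 and day 4 limma called 0 of 6, at an unadjusted p under 0.05 likewise 0, where 4.35% of all probe sets passed after adjustment and 1241 of 6185 had an unadjusted p under 0.05. WLIM1, WLIM2a, WLIM2b and TUB5 were lower on both later days than on day 0 in all 4 genotypes, as were 9.12% of the tested probe sets. ACT11 was higher on both later days in all 4, as were 9.72%. Day 2 lay wholly above day 0 for 7.49% of them and wholly below for 7.41%, and day 4 for 14.4% and 11.4%. In size, the ACT11 differences stood at the 98.1st percentile of all tested probe sets on both later days. The day 2 differences of WLIM2a, TUB5, WLIM2b and WLIM1 stood at percentiles 2.9, 4.1, 5.5 and 6.8. Their day 4 differences stood less far out, at percentiles 6.5, 6.8, 12.3 and 7.5 in the same order. The same fit without the FRISf2-flc3 day 2 array gave day 2 differences of -0.39, -0.49 and -0.35 for WLIM1, WLIM2a and WLIM2b, 0.48 for ACT11 and -0.46 for TUB5.

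**Figure D2:**
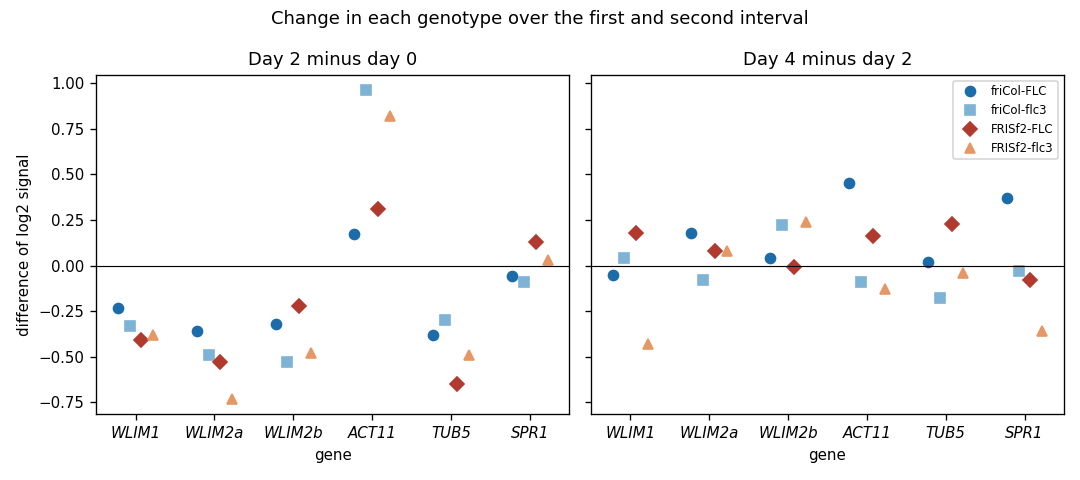
Difference of log2 signal between days in each genotype (vertical axis) for the 6 genes (horizontal axis), from day 0 to day 2 on the left and from day 2 to day 4 on the right, with 1 point per genotype. In the first interval all genotypes lie below 0 for the LIM genes and TUB5 and above 0 for ACT11, where 0.96 and 0.82 without FLC stand apart from 0.17 and 0.31 with it, while in the second interval each gene has genotypes on both sides of 0.

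Day accounted for most of the variation of 5 members and for nearly none of that of SPR1. The share of the sum of squares over the 12 arrays that fell to day was 86.8% for WLIM2a, 85.8% for WLIM2b, 76.7% for TUB5, 73.8% for ACT11 and 64.7% for WLIM1, against 0.5% for SPR1. The median over all tested probe sets was 32.7%. Members were chosen by their course over the days, so the high day shares of these 5 follow from the choice and are a description. Genotype took 40.4% for SPR1 and 15.3% for TUB5, and 3.2% to 9.8% for the other members, with a median of 19.5% over all tested probe sets.

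Across the 12 arrays, which share the same 3 days and 4 genotypes, WLIM2a and WLIM2b had a Pearson r of 0.86 (Spearman 0.73). WLIM1 had an r of 0.73 with WLIM2a (Spearman 0.68) and 0.57 with WLIM2b (Spearman 0.58). ACT11 ran opposite to all 3, at -0.65, -0.84 and -0.84 with WLIM1, WLIM2a and WLIM2b (Spearman -0.59, -0.66 and -0.87). After genotype and day means were removed, r was 0.33 between WLIM1 and WLIM2a, -0.34 between WLIM1 and WLIM2b and -0.03 between WLIM2a and WLIM2b. The residual r of ACT11 was -0.86 with WLIM2b, the lowest among all pairs of members, 0.06 with WLIM1 and -0.18 with WLIM2a. These residuals still hold any split of the days by the FLC allele. On day 2 those of ACT11 were -0.25 and -0.11 with FLC, and 0.19 and 0.16 without it. Those of WLIM2b were 0.05 and 0.10 with FLC, and -0.08 and -0.07 without it. The part of this split in the r of -0.86 was not tested. TUB5 had an r of 0.85, 0.84 and 0.67 with WLIM1, WLIM2a and WLIM2b (Spearman 0.73, 0.57 and 0.53) and of -0.74 with ACT11 (Spearman -0.53). Its residual r was 0.43 and 0.49 with WLIM1 and WLIM2a, -0.73 with WLIM2b and 0.34 with ACT11. SPR1 had an r between -0.10 and 0.20 with the other members, and a residual r between -0.19 and 0.55. These correlations are descriptions over 12 arrays, of genes chosen by their courses over the days, and the residual ones rest on 6 degrees of freedom.

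The genotypes were then compared, which the choice of members did not use. No member passed the adjusted threshold in any of the genotype comparisons. FRISf2-FLC, where FRI is active and FLC not deleted, was set against the mean of the other 3. ACT11 differed by -0.17 ± 0.115 (95% interval -0.42 to 0.08), SPR1 by -0.08 ± 0.103 (-0.31 to 0.14) and WLIM1 by -0.07 ± 0.0983 (-0.29 to 0.14). WLIM2a differed by 0.07 ± 0.0832 (-0.11 to 0.25), WLIM2b by 0.06 ± 0.0671 (-0.08 to 0.21) and TUB5 by -0.02 ± 0.0783 (-0.19 to 0.15). The intervals are those of limma. Of the 6 members 0 passed in limma, and 0 had an unadjusted p under 0.05, where 0.76% and 10.7% of all tested probe sets did.

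Single allele changes gave the same count. In limma 0 of 6 members passed for the effect of FLC with active FRI, where 0.146% of all probe sets passed, and 0 of 6 for the effect of FLC without it, where 0.0162% passed. The count was 0 of 6 for the Sf-2 FRI allele with FLC (0.178% of all) and 0 of 6 without FLC (0.0808% of all), and 0 of 6 for the interaction of FRI and FLC (0.0323% of all). In these 5 comparisons 0 of 6 members had an unadjusted p under 0.05, which 11.8%, 2.47%, 6.87%, 8.99% and 7.26% of all probe sets had, in the same order. The nearest were SPR1, lower with the Sf-2 FRI allele in the absence of FLC by a difference of -0.26 ± 0.126 (limma adjusted p = 0.589), and ACT11, with -0.27 ± 0.141 for that allele in the presence of FLC (limma adjusted p = 0.786). With so few calls over the whole array, a count of 0 among 6 is near the background.

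In order of mean level over the 3 days, SPR1 ran from friCol-flc3 (5.80 ± 0.0606) through friCol-FLC (5.68 ± 0.20) and FRISf2-FLC (5.59 ± 0.0646) to FRISf2-flc3 (5.54 ± 0.198; SD, n = 3 days). TUB5 ran from FRISf2-flc3 (7.78 ± 0.293) through friCol-flc3 (7.62 ± 0.24) and FRISf2-FLC (7.62 ± 0.33) to friCol-FLC (7.51 ± 0.213). ACT11 ran from friCol-FLC (7.20 ± 0.321) through FRISf2-flc3 (7.08 ± 0.438) and friCol-flc3 (7.02 ± 0.529) to FRISf2-FLC (6.93 ± 0.239). WLIM1 ran from FRISf2-flc3 (7.16 ± 0.406) through friCol-FLC (7.03 ± 0.152) to friCol-flc3 and FRISf2-FLC (6.99 each), and the genotype means of WLIM2a and WLIM2b spanned 0.10 and 0.08. No pair of neighbours in these orders passed in limma. Of the 6 pairs of genotypes, limma called 0 for every member; the 1 unadjusted p under 0.05 was for TUB5 between FRISf2-flc3 and friCol-FLC (0.27 ± 0.0959, limma adjusted p = 0.778), where 5.71% of all probe sets had one and 0.113% passed after adjustment. That pair and the pair of FRISf2-FLC and friCol-flc3 differ in both alleles and were added after the data were seen. For FRISf2-FLC against friCol-flc3, 0.356% of all probe sets passed and 9.52% had an unadjusted p under 0.05. The 95% intervals over the 6 pairs reached at most 0.26 for WLIM2b, 0.33 for WLIM2a, 0.43 for WLIM1, 0.47 for TUB5, 0.54 for SPR1 and 0.58 for ACT11 in either direction. All of these intervals include 0 except that of the TUB5 pair, which ran from 0.06 to 0.47.

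**Figure D3:**
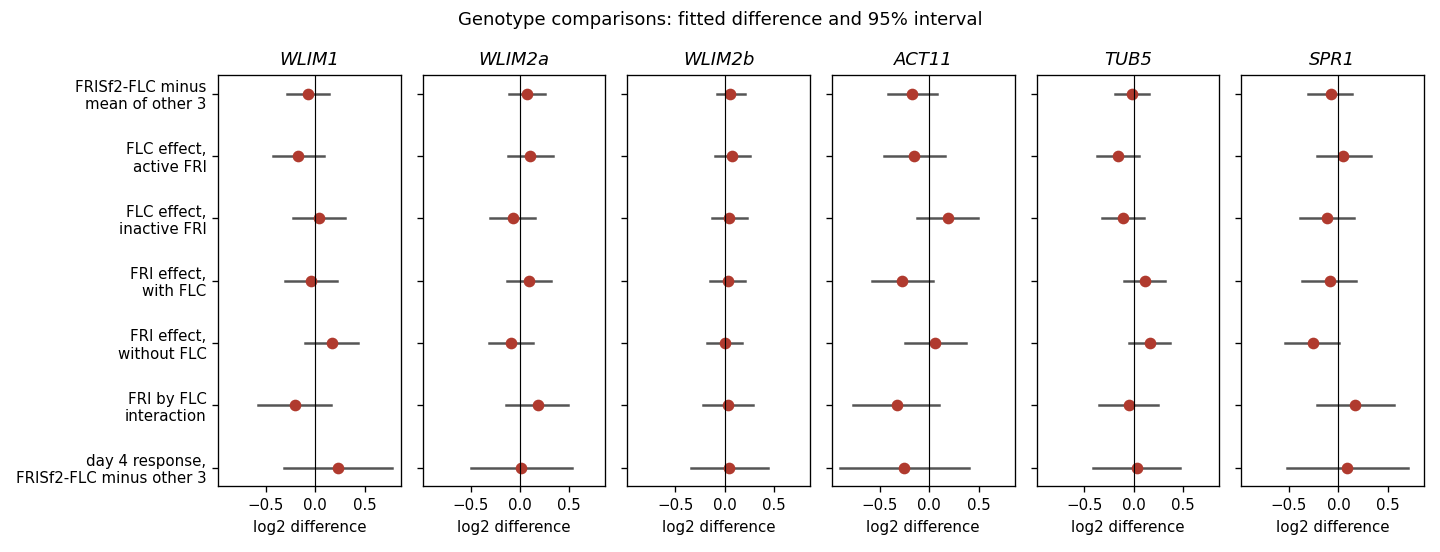
Fitted log2 difference (horizontal axis, dots) with its 95% interval (bars) for 7 genotype comparisons (rows) in each of the 6 genes (panels). All 42 intervals include 0, as for ACT11 in FRISf2-FLC against the other genotypes (-0.17, from -0.42 to 0.08).

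Whether FRISf2-FLC responds to the 4 days differently from the other 3 genotypes was tested in a fit with day terms of its own. Its response differed from theirs by 0.23 ± 0.249 for WLIM1, 0.01 ± 0.233 for WLIM2a, 0.05 ± 0.177 for WLIM2b, -0.25 ± 0.293 for ACT11, 0.03 ± 0.197 for TUB5 and 0.09 ± 0.275 for SPR1. In limma 0 of 6 passed, and 0 had an unadjusted p under 0.05, where 0.0162% and 1.92% of all tested probe sets did. The 95% interval for WLIM2a ran from -0.50 to 0.53, against a fitted change of -0.46 over these days, so the interval includes differences as large as the change itself.

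Few other genes of the cytoskeleton could be tested. The 7 lists of LIM, actin, actin-binding, myosin, tubulin, microtubule-associated and kinesin genes held 211 gene symbols. These include the members and, for some genes, several symbols of the same gene. Besides the members, 11 genes of the lists had a probe set of their own and 7 were tested. The LIM, actin and kinesin lists had 0 tested genes besides the members, and the actin-binding list had 1. Limma called 0 of the 7 on day 2 and 0 on day 4 against day 0, where 10.7% and 18.3% of all probe sets passed. With only 7 genes, a count of 0 is near the background. At an unadjusted p under 0.05 there were 1 and 2, where 24.5% and 31.3% of all probe sets had one. The median differences of the 7 were -0.02 on day 2 and 0.03 on day 4, beside 0.00 and 0.04 over all probe sets. Between day 2 and day 4 limma also called 0 of 7, with 1 at an unadjusted p under 0.05, where 4.35% of all probe sets passed after adjustment and 1241 of 6185 before it.

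Among the other tubulins, TUB6, a beta-tubulin, measured 9.24 ± 0.0312 on day 0, 9.06 ± 0.0638 on day 2 and 9.08 ± 0.077 on day 4 (SD, n = 4). Its differences of -0.18 ± 0.0727 and -0.16 ± 0.0727 had the sign of TUB5 and did not pass (limma adjusted p = 0.147 and 0.157). TUB9, a beta-tubulin gene known from pollen, differed by 0.10 ± 0.095 and 0.17 ± 0.095, and the alpha-tubulin gene TUA1 by -0.02 ± 0.0869 and 0.02 ± 0.0869. BRK1, a subunit of the SCAR/WAVE complex that activates actin branching, differed by 0.07 ± 0.13 on day 2 and 0.32 ± 0.13 on day 4 without passing (limma adjusted p = 0.118 on day 4). The tubulin folding gene POR differed by 0.20 ± 0.101 on day 4, the microtubule cross-linker gene MAP65-6 by 0.03 ± 0.129 and the myosin gene XI-I by 0.03 ± 0.101. The myosin gene XIH, added after the annotation was read, differed by 0.08 ± 0.0911.

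**Figure D4:**
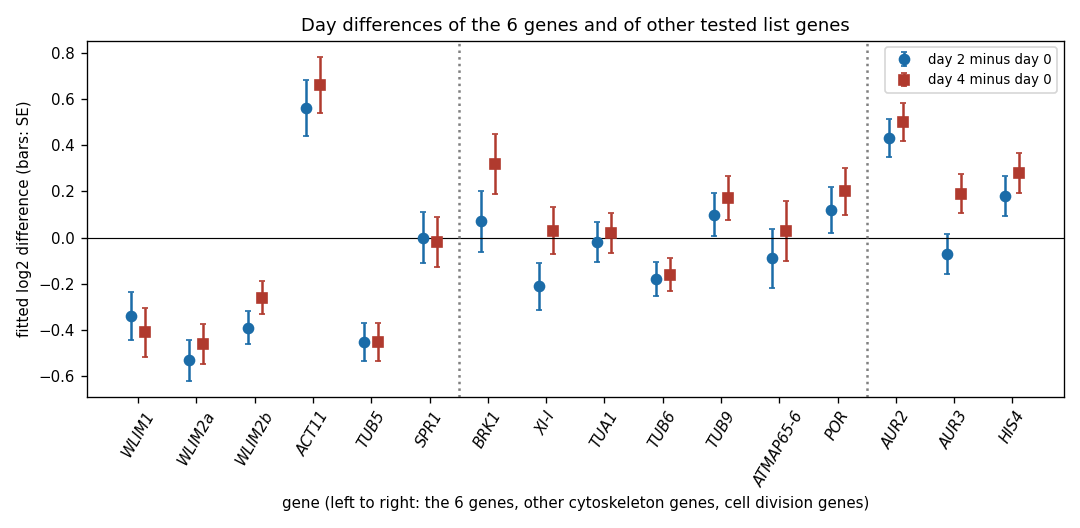
Fitted log2 difference from day 0 on day 2 (circles) and day 4 (squares), with SE bars (vertical axis), for the 6 genes, 7 other cytoskeleton genes and 3 cell division genes (horizontal axis, separated by dotted lines). The 7 other cytoskeleton genes lie between -0.21 (XI-I, day 2) and 0.32 (BRK1, day 4), inside the range from -0.53 for WLIM2a to 0.66 for ACT11.

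Of the pollen and anther marker list, 5 genes had a probe set, and 3 of the 5 lay below the filter. PLIM2a, a pollen LIM gene, measured 2.86 ± 0.17, 2.83 ± 0.116 and 2.80 ± 0.0977 on days 0, 2 and 4, and the pollen actin gene ACT12 measured 3.23 ± 0.067, 3.34 ± 0.257 and 3.13 ± 0.178. Both lay under the filter of 3.56 and were not tested, as did AMS, a regulator of anther development, with a mean of 2.84. The list named 22 genes. The other 2 with a probe set, TUA1 and TUB9, had mean signals of 7.11 and 9.20 and were tested. Limma called 0 of these 2 over the days, with 0 at an unadjusted p under 0.05. Against day 0, 10.7% of all probe sets passed on day 2 and 18.3% on day 4, and 24.5% and 31.3% did before adjustment. Between day 2 and day 4, 4.35% of all probe sets passed after adjustment and 1241 of 6185 before it. With only 2 genes, a count of 0 is near this background and decides nothing. The part of pollen or anther tissue in the ACT11 values was not tested.

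Some cell division and leaf genes changed with the days as well. The Aurora kinase gene AUR2, which acts in mitosis, rose by 0.43 ± 0.0834 on day 2 and by 0.50 ± 0.0834 on day 4 (limma adjusted p = 0.00624 and 0.0012). HIS4, a histone H4 gene, rose by 0.28 ± 0.0874 on day 4 (limma adjusted p = 0.0425), a call kept in 10 of 22 alternative settings. How far the HIS4 probes also bind other histone H4 genes was not tested. On day 2 HIS4 differed by 0.18 ± 0.0874 and AUR3 by -0.07 ± 0.0852, and on day 4 AUR3 differed by 0.19 ± 0.0852, all without passing. Thus 1 of 3 tested genes of the division list passed on day 2 and 2 of 3 on day 4, and those that passed were higher. Over all probe sets 10.7% passed on day 2 (4.8% higher) and 18.3% on day 4 (8.78% higher). Of 4 leaf mesophyll markers 1 rose on day 2 and on day 4, where 4.8% and 8.78% of all probe sets rose. This was SBPASE, an enzyme of carbon fixation, higher by 0.49 ± 0.0851 on day 2 (limma adjusted p = 0.00347, a call kept in 21 of 22 settings) and by 0.32 ± 0.0851 on day 4 (limma adjusted p = 0.0219, kept in 15 of 22). RCA, which activates Rubisco, and LHCB4.1, a light-harvesting protein gene, differed from day 0 by -0.33 ± 0.106 and -0.21 ± 0.0693 on day 4 without passing. Between day 2 and day 4 RCA fell by 0.47 on the log2 scale (SE 0.106, limma adjusted p = 0.0301), a call kept in 13 of 22 settings, so that 1 of the 4 passed in that interval, where 4.35% of all probe sets did. The part of such shifts in the values of the members was not tested.

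The genes with the most similar courses were sought among the 2730 other tested probe sets with 1 gene, by Pearson r over the 12 arrays. The closest to the mean of the LIM probe sets were AT4G31060 (0.95), PDC2 (0.95), a pyruvate decarboxylase gene, AT5G62350 (0.94), AT3G61160 (0.93) and AT3G26580 (0.93). All 5 were lower on day 4, by differences of -0.25, -0.94, -1.01, -0.69 and -1.15. The Spearman coefficients, between 0.57 and 0.84, were lower than the Pearson ones. For ACT11 they were AT1G23205 (0.91), AT3G16330, AT2G20870 on both of its probe sets and AT1G01540 (0.89 each). For TUB5 they were AT3G61160 and AT4G26130 (0.89 each), then AT2G28360, AT2G31010 and the clock gene GI (0.88 each). For SPR1 they were AT4G14050 (0.90), AT4G14820 (0.83), AT2G34590 (0.81), WRKY6 (0.76) and AT2G41020 (0.72), and none of these differed from day 0 by more than 0.05 on day 4. AT3G61160 stood in the first 5 for both the LIM genes and TUB5. These r values are descriptions over arrays that share days and genotypes, and with 2730 candidates high values also arise without any link.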

How the data were processed

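Total RNA of shoot apices was measured on 12 one-colour arrays. The authors deposited 1 log2 value per probe set and array; that the values are log2 was read from the deposited values, and which software and normalization made them is not stated in the sources used here. Values were used as deposited, and groups came from the sample titles. Of 8297 probe sets 50 were controls. By the platform annotation, 3794 probe sets had 1 gene, 70 had more than 1 and 4383 had no gene name. Loci are from the RefSeq gene table. The 6185 probe sets with a mean above the 25th percentile (3.56) entered limma (version 3.58.1, under R 4.3.3; lmFit and eBayes with a trend), additive in genotype and day over all 12 arrays, with 6 residual and 5.93 prior degrees of freedom, two-sided, Benjamini-Hochberg over all tested probe sets at 0.05. The spread is what the additive model leaves. The fit with separate day terms of FRISf2-FLC had 4 residual degrees of freedom. The script was tested on simulated data.

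The members and gene lists were chosen with earlier results of these data known. Named were all members, every called list gene, the 2 largest uncalled day 4 differences per list and the 5 most similar probe sets; TUA1, XIH and the untested pollen genes were named beside them. Alternatives were 2 normalizations, 2 filters, 2 variance models, day as a number, subsets of arrays, array weights, each array left out and fits without the genotype or day block. No probe or gene sequence was used.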

Additional observations from a re-analysis of the deposited data

Results flagged for a closer look

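Of 18 sets of 4 arrays (6 genes on 3 days), 2 held an array far from the other 3 by Dixon's test, where chance alone gives about 5% of sets. WLIM1 measured 7.55 in FRISf2-flc3 on day 0, against 7.20 in the other 3 genotypes. WLIM2a measured 7.48 in friCol-FLC on day 0, against 7.72 to 7.74 in the others.

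Every member was searched, for FLC and for FRI and between all pairs of days, for opposite changes by allele. In 4 cases the genotypes with one allele all moved one way and those with the other allele all moved the opposite way. ACT11 changed from day 2 to day 4 by a mean of 0.30 with FLC and -0.11 without it, a difference of 0.42 ± 0.171 (SE, log2; limma adjusted p = 0.806). Leaving out 1 array at a time kept this difference between 0.31 and 0.53, and that of the first interval between -0.75 and -0.54, with no call in any of these fits. TUB5 changed over the same interval by 0.12 with FLC and -0.11 without, a difference of 0.23 ± 0.169 (limma adjusted p = 0.823). SPR1 changed from day 0 to day 4 by 0.18 with FLC and -0.22 without, a difference of 0.40 ± 0.197 (limma adjusted p = 1). It changed from day 0 to day 2 by 0.08 with the Sf-2 FRI allele and -0.07 with the Col-0 allele, a difference of 0.15 ± 0.205 (limma adjusted p = 0.884). Each mean is over 2 genotypes. Some single changes were small, as for TUB5 in friCol-FLC (0.02) and FRISf2-flc3 (-0.04), and for SPR1 in FRISf2-flc3 by day 2 (0.03). Opposite signs of this kind were seen in 9.33% of all tested probe sets for FLC from day 2 to day 4, in 4.53% for FLC from day 0 to day 4 and in 10.7% for FRI from day 0 to day 2. No member had them for FLC by day 2, where 7.58% of all did. Nor did any for FRI by day 4 (4.83% of all) or for FRI from day 2 to day 4 (7.99%). Over all combinations searched, a count of 4 is near this background. The tests of these differences were added after the data were seen.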

How the results depend on the processing

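The day differences of WLIM1, WLIM2a, WLIM2b, ACT11 and TUB5 from day 0 kept their sign in all 22 alternative settings. These differences chose the members, so their sign and their calls across settings describe the fits and support nothing. WLIM2a and TUB5 were called in all 22 on both days. ACT11 was on day 4, and on day 2 in 20, not being called without the day 0 array of friCol-flc3 or FRISf2-flc3 (limma adjusted p = 0.0513 and 0.0512). WLIM2b kept its call in 21 settings on day 2 and in 16 on day 4, losing it with day as a number (limma adjusted p = 0.143) and, on day 4, without the day 0 array of friCol-FLC, friCol-flc3 or FRISf2-flc3 or the day 4 array of friCol-FLC or FRISf2-FLC. WLIM1 was called on day 2 in 6 settings and kept its day 4 call in 20, losing it without the day 0 or day 4 array of FRISf2-flc3. The number of members called was 3 to 5 for each day against day 0 when 1 array was left out, the 3 on day 4 arising without FRISf2-flc3 day 0. With day as a number, 4 members were called between day 2 and day 4, since 1 slope gives both intervals the same change. Over all probe sets the count of calls ran from 422 to 918 on day 2 (main 661), from 791 to 1563 on day 4 (main 1130) and from 113 to 900 between them (main 269). In the 7 genotype comparisons 0 members were called by limma under any setting run, while the counts over all probe sets ran from 3 to 117 for FRISf2-FLC against the other genotypes (main 47), 2 to 31 for FLC with active FRI (main 9), 3 to 37 for FRI with FLC (main 11), 2 to 11 for FRI without FLC (main 5), 0 to 9 for the interaction (main 2), 0 to 2 for FLC without active FRI (main 1) and 0 to 3 for the day 4 response of FRISf2-FLC (main 1). Without the replicate block (no genotype term for days, no day term for genotypes) the members called were 4, 5 and 0 for the 3 day comparisons, as with it. For the day 4 response of FRISf2-FLC the settings without a block, with subsets of arrays, and without any 1 array of FRISf2-FLC gave no value.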
